A study of Mus musculus with 23 samples.

Results

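The genes of cholesterol synthesis, uptake and efflux were examined in colon RNA of HFD-fed mice colonized with BF BSHlow or BF BSHhigh. They are 32 of the 55449 genes in the count table and were chosen by symbol for their roles. The rule itself uses no measured value, although earlier results of these data were known when it was made. By role, 7 belong to the mevalonate and isoprenoid steps, 11 to the sterol steps, 5 to the control of synthesis, 4 to uptake, transfer and esterification, and 5 to efflux and its receptors. All libraries came from male C57BL/6 mice of genotype Cdx2Apcf/w, in which *Cdx2*-driven Cre deletes a floxed *Apc* allele in the colon. The mice were 6 to 8 weeks old at the start and ate a 60% HFD. BF BSHlow is *B. fragilis* 638R with an empty vector, and BF BSHhigh is this strain with the *bsh* gene of a different strain, so that bile salt hydrolase activity is the intended difference. Normal colon was taken after 2 weeks (4 libraries per strain) and non-tumor colon after 12 weeks (4 per strain). Tumors of 12 weeks gave 4 libraries for BF BSHlow and 3 for BF BSHhigh. Every group carries the *Apc* deletion and an antibiotic-treated, recolonized gut, so there is no wild-type and no uncolonized control. The count table's header gives 3 names of BF BSHlow tumors to 2 columns each and names no BF BSHhigh tumor. Both sets of columns were told apart by matching their counts to a supplementary table of the study that gives the group of each column, not by their names, and every tumor result rests on that match. The BF BSHhigh tumors are called replicates a, b and c because their numbers are not known.

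Cells make cholesterol from acetyl-CoA through mevalonate, isoprenoid diphosphates and squalene, and then through a series of sterols. The factor SREBP2 turns on these genes when sterol is low in the membrane of the endoplasmic reticulum, where SCAP escorts it and the INSIG proteins hold it back. Cells with excess sterol store it as esters or export it through ABC transporters, many of which are targets of the oxysterol receptors LXR. In the gut, cholesterol comes from bile and diet as well as from synthesis in the epithelium, and bile salts are needed to take it up.

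The RefSeq promoter table (build GRCm38.p6, 250 bases before to 50 after each start) held 27 of the 32 genes. Motifs were searched on both strands, and a gene counts as holding a motif if any of its promoters does, while the shares of all promoters count each promoter. The CCAAT box, read as ATTGG on the other strand, lay in promoters of 22 of the 27 genes, against 37.4% of all 32851 promoters. Of the 15 synthesis genes with a promoter, 14 held it. The GC box GGGCGG lay in 21 of the 27 genes, against 35.7% of all promoters. The E-box CACGTG lay in 6, against 7.2%. The sterol regulatory element core TCACNCCAC lay in 1, against 1.2%, and its shorter form CACNCCAC, which every TCACNCCAC contains, in 3, against 6.2%. These matches are letters in a window and no binding was measured. Below are the stretches upstream of 4 starts that no annotated exon overlaps, with CCAAT boxes and sterol element cores in capitals. *Hmgcs1* is shown because it alone holds the longer sterol core, *Mvk* because its stretch holds the most CCAAT boxes (5), *Insig1* because it is the sterol-controlled brake on the pathway, and *Abcg8* because *Abcg5* starts at the other end of the same 109 bases. *Hmgcs1* is at chr13:119690101-119690350 (+ strand), *Mvk* at chr5:114444061-114444268 (+ strand), *Insig1* at chr5:28071162-28071362 (+ strand) and *Abcg8* at chr17:84683012-84683120 (+ strand).
Hmgcs1: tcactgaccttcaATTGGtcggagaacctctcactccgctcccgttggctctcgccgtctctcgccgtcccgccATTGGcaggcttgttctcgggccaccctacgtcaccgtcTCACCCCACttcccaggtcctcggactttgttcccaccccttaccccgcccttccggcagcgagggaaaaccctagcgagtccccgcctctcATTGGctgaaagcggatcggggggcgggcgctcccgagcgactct
Mvk: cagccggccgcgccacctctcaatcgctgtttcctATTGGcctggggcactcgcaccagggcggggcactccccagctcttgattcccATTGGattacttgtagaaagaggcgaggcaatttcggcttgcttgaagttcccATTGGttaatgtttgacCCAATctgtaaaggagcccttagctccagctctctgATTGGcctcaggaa
Insig1: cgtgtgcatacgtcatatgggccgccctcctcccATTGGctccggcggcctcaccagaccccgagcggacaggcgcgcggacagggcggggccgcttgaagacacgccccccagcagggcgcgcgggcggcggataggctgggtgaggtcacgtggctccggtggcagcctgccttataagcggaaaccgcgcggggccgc
Abcg8: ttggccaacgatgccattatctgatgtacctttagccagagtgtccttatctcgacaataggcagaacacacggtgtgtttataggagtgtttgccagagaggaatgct
The shared stretch of *Abcg5* and *Abcg8* holds none of the CCAAT boxes or sterol element cores. The CCAAT boxes of both genes lie outside it.

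Levels are given as CPM, the count per 1000000 counts of a library after TMM scaling over all 23 libraries, which held 12401388 to 17903008 expected counts each. Of the 32 genes, 29 were at 1 CPM or more in every library. On the scale of CPM per kilobase of exon, averaged over all libraries, *Hmgcs1* (HMG-CoA synthase) was the highest at 68.2. *Idi1*, the isomerase of isopentenyl diphosphate, followed at 45.5 and *Stard4*, a sterol carrier of the cytosol, at 42.9. The lowest were *Npc1l1*, the intestinal cholesterol importer, at 0.348, and *Soat2*, an enzyme that esterifies cholesterol, at 0.61. Counts of 6 of the genes were not whole in some library, since RSEM shares reads between genes. These were *Fdps* (23 libraries), *Idi1* (20), *Acat2* and *Fdft1* (15 each), *Tm7sf2* (7) and *Insig1* (1). *Abcg5* and *Abcg8* overlap on opposite strands, and the strand setting of the counting is not given in the sources used here, so reads in the overlap cannot be assigned with certainty. *Tm7sf2* overlaps *Vps51* on the same strand, and *Fdps* overlaps *Gm43738* and *Gm22935* on its own strand.

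**Figure D1:**
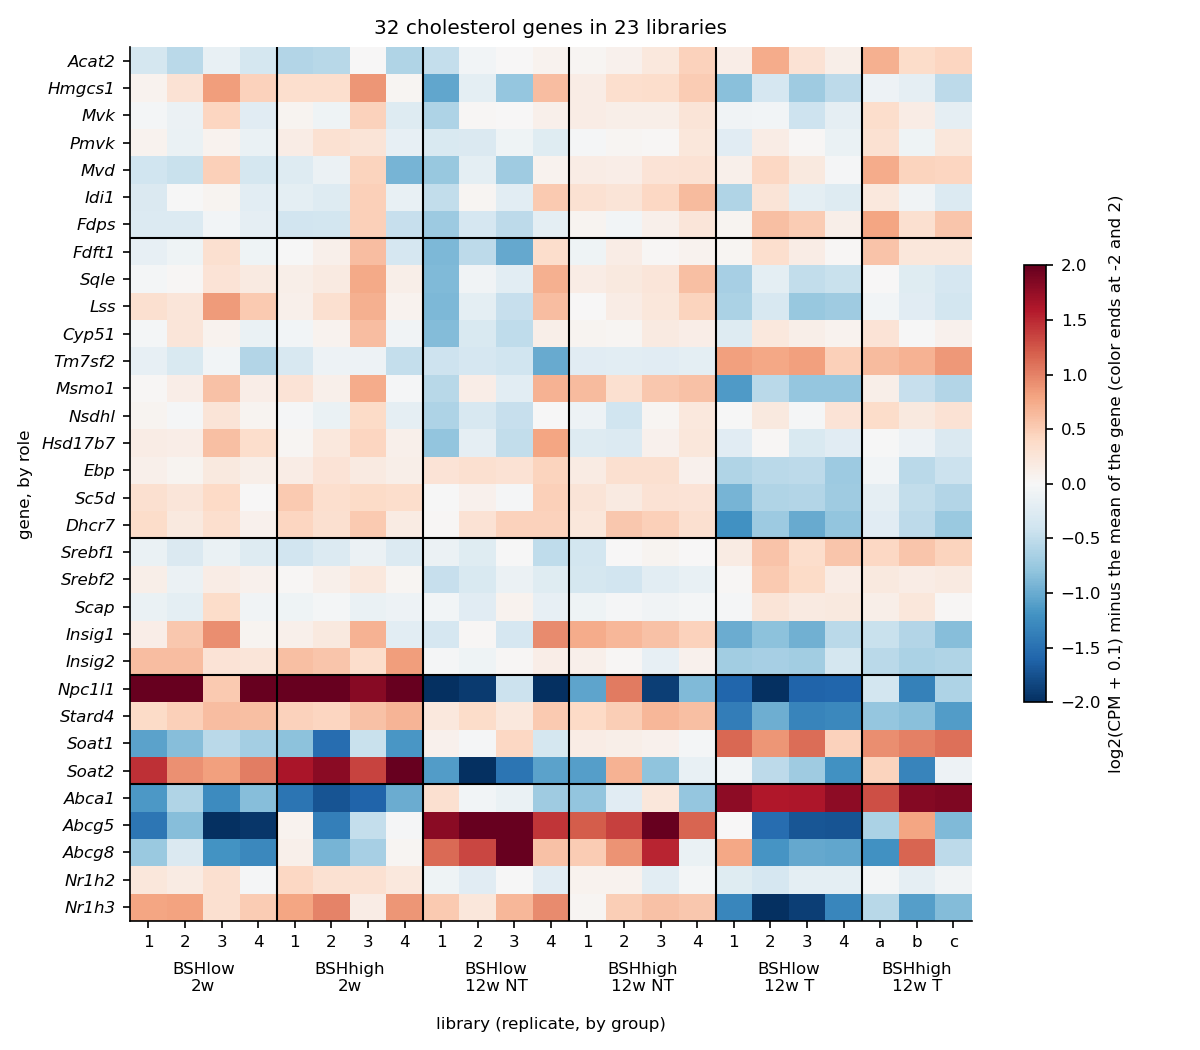
Log2(CPM + 0.1) of each of the 32 genes (rows, by role) in each of the 23 libraries (columns, by group), minus the mean of the gene over all libraries. Red is above and blue below that mean. *Abca1* and *Tm7sf2* are above their means in all 7 tumor libraries, while *Stard4*, *Dhcr7* and *Insig1* are below theirs.

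The tissue differed between the groups in its markers as well. Summed over 7 epithelial markers, CPM was 15132.1 to 20260.2 at 2 weeks, 11058.2 to 14533.9 in 12-week non-tumor colon and 3905.2 to 8555.5 in tumors. The 5 smooth muscle markers summed to 3.36 to 108.5, 871.0 to 5624.3 and 45.5 to 136.2 in these tissues, and the 4 macrophage markers to 4.42 to 13.5, 21.4 to 82.0 and 43.9 to 127.9. The 7 small intestinal enterocyte markers summed to 1278.6 to 2750.7 at 2 weeks and 47.0 to 111.6 in 12-week non-tumor colon. The ileal bile acid transporter *Slc10a2* alone was at 227.3 to 970.4 and 2.44 to 22.6. Goblet markers summed to 10822.9 to 31450.7 in 12-week non-tumor colon, 64.2 to 148.7 in BF BSHlow tumors and 572.1 to 4131.8 in BF BSHhigh tumors. The 5 markers of mature colonocytes summed to 1228.9 to 3746.5, 306.2 to 425.3 and 374.9 to 513.1. Against non-tumor colon, the median log2 fold change of the goblet markers was -6.97 in BF BSHlow tumors and -3.44 in BF BSHhigh tumors, and that of the colonocyte markers was -10.56 and -4.54. *Slc9a3* of the colonocyte list went the other way, by 4.07 ± 0.91 (adjusted p = 0.00128) and 2.45 ± 0.88 (adjusted p = 0.0283). It was at 265.6 to 342.2 CPM in BF BSHlow tumors and 276.4 to 372.7 CPM in BF BSHhigh tumors. The tumor sums of the colonocyte list are therefore mostly its own. The colonocyte transporter *Slc26a3* was at 0.0 to 0.49 CPM in BF BSHlow tumors and at 3.43 to 39.1 CPM in BF BSHhigh tumors (adjusted p = 0.0481), and the water channel *Aqp8* at 0.0 to 0.196 and 2.43 to 18.4 CPM (adjusted p = 0.0406). The rest of that list was not called between these tumors. *Car4* was at 5.67 ± 0.95 (adjusted p = 0.0535), *Car1* at 0.00 ± 0.50 and *Slc9a3* at 0.04 ± 0.14. The squamous markers summed to 54.5 to 144.7 in BF BSHlow tumors and 29.6 to 38.8 in BF BSHhigh tumors, with *Krt5* between 0.0 and 0.205. In bulk RNA, fewer cells of a type and less RNA per cell cannot be told apart. The part of these markers in the results that follow was not tested.

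BF BSHhigh was compared with BF BSHlow to ask whether bacterial bile salt hydrolase changed the pathway in the colon. No cholesterol gene passed an adjusted p-value of 0.05 in any tissue by the quasi-likelihood test of edgeR. The fold changes of the 18 synthesis genes were small and mostly positive at 12 weeks. In non-tumor colon all 7 mevalonate and isoprenoid genes and 9 of the 11 sterol genes had a positive fold change, and in tumors all 18 did, with *Tm7sf2* at 0.00. Over all tested cholesterol genes, 23 of 30 and 27 of 31 were positive, against 47.2% and 45.5% of all genes. With a library left out, 20 to 24 were positive in non-tumor colon and 24 to 27 in tumors. The median log2 fold change over all tested cholesterol genes was 0.06 at 2 weeks, 0.22 in non-tumor colon and 0.20 in tumors, against 0, -0.01 and -0.03 over all genes tested. Single libraries moved these medians. At 2 weeks the median was -0.08, with 13 of 32 genes positive, without replicate 3 of BF BSHhigh, and 0.12 without replicate 3 of BF BSHlow. In non-tumor colon it was 0.14 without replicate 1 of BF BSHlow. In tumors it was 0.11 without replicate a and 0.31 without replicate 2 of BF BSHlow. Genes of a pathway are not independent, and these signs were not tested.

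At 2 weeks, 0 of 32 cholesterol genes were called, where 0.00727% of all genes were called. At an unadjusted p under 0.05, 3 were higher (3.83% of all genes) and 1 was lower (2.97%). With a library left out, 1 to 3 were higher and 0 to 2 lower, where 383 to 635 and 264 to 668 of all genes were. DESeq2 and limma-voom called 0 as well, where DESeq2 called 43 of 13752 genes higher and 10 lower, and limma-voom 1 higher and 0 lower. The 3 genes with the smallest p-values were *Abcg5*, *Soat2* and *Abca1*. *Abcg5*, the partner of *Abcg8* in export of sterol to the lumen, was at 1.74, 2.67, 0.852 and 1.20 CPM with BF BSHlow and at 5.18, 1.84, 3.49 and 4.81 CPM with BF BSHhigh. The groups overlapped through replicate 2 of each, and the log2 fold change was 1.22 ± 0.42 (SE), with an adjusted p of 0.683. *Soat2* was at 2.73, 1.83, 1.70 and 1.97 CPM against 3.09, 3.46, 2.52 and 4.57 CPM (0.71 ± 0.27, adjusted p = 0.711). *Abca1*, which loads cholesterol onto lipid-poor apolipoprotein, was at 13.9, 20.4, 13.0 and 17.2 CPM against 11.2, 9.35, 10.2 and 15.5 CPM (-0.49 ± 0.20, adjusted p = 0.711). Both pairs of groups overlapped. The 18 synthesis genes lay between -0.19 and 0.20.

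In 12-week non-tumor colon, 0 of the 30 genes tested were called, as were 0% of all genes. *Npc1l1* and *Soat2* were too low to be tested. At an unadjusted p under 0.05, 4 were higher (5.30% of all genes) and 0 were lower (3.92%). DESeq2 called *Fdps* (adjusted p = 0.015), where it called 133 of 14933 genes higher and 36 lower. Limma-voom called 0 cholesterol genes and 0 of all genes. *Fdps*, which makes farnesyl diphosphate, was at 67.1, 88.0, 77.1 and 97.2 CPM with BF BSHlow and at 115.6, 107.5, 119.0 and 130.9 CPM with BF BSHhigh. The groups did not overlap, with a log2 fold change of 0.51 ± 0.12 and an adjusted p of 0.328 from edgeR. *Pmvk*, phosphomevalonate kinase, was at 23.2, 23.5, 27.1 and 24.3 CPM against 28.2, 29.5, 29.4 and 33.7 CPM (0.29 ± 0.08, adjusted p = 0.402). *Mvd*, the decarboxylase that makes isopentenyl diphosphate, was at 26.2, 38.7, 27.2 and 46.6 CPM against 49.4, 49.0, 54.0 and 54.4 CPM (0.57 ± 0.18, adjusted p = 0.408). In each of these the groups were apart. The genes were picked for the smallest p-values, which favors groups that are apart, so this adds no support for a difference. *Hmgcs1* showed how far the BF BSHlow libraries scattered: it was at 143.5, 255.0, 171.7 and 449.9 CPM, against 326.4, 371.2, 373.2 and 418.5 CPM. Replicate 4 alone exceeded the BF BSHhigh libraries. Without this library, 15 cholesterol genes were higher and 1 was lower at an unadjusted p under 0.05, where 996 and 749 of 15162 genes were, and the smallest adjusted p was 0.229. It had the least smooth muscle (871.0 CPM) and macrophage marker RNA (21.4 CPM) and the most colonocyte marker RNA (3746.5 CPM) of its group.

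In tumors, 0 of 31 genes were called, where 0.509% of all genes were. At an unadjusted p under 0.05, 6 were higher (8.50% of all genes) and 0 were lower (4.20%). DESeq2 called 0, where it called 606 of 15325 genes higher and 135 lower. Limma-voom called 0, where it called 40 higher and 3 lower. *Lss*, which closes the sterol rings, was at 27.3, 34.1, 25.2 and 25.9 CPM with BF BSHlow and at 41.1, 36.5 and 32.9 CPM with BF BSHhigh (0.38 ± 0.13, adjusted p = 0.271). *Mvd* was at 47.6, 59.5, 51.2 and 43.9 CPM against 74.7, 60.4 and 60.2 CPM (0.36 ± 0.12, adjusted p = 0.28). The *Mvd* groups did not overlap, while those of *Lss* did. *Nr1h3*, the LXR alpha receptor, was at 7.11, 3.69, 4.72 and 7.08 CPM against 12.0, 8.21 and 9.63 CPM (0.80 ± 0.29, adjusted p = 0.286), and its groups did not overlap either. These genes too were picked for the smallest p-values, so gaps between their groups add no support for a difference. Replicate a held the highest value of 17 of the 18 synthesis genes among the BF BSHhigh tumors. Without it, 0 cholesterol genes were higher at an unadjusted p under 0.05, where 763 of 15641 genes were. Among the BF BSHlow tumors, leaving out replicate 1 gave 3, where 1431 of 15106 genes were higher. Leaving out replicate 3 gave 1 (1147 of 15203 genes) and replicate 2 gave 9 (1209 of 15247 genes). Replicate a of the BF BSHhigh tumors also had the most epithelial (8555.5 CPM) and goblet marker RNA (4131.8 CPM) of its group. It had the most smooth muscle (136.2 CPM), macrophage (127.9 CPM), fibroblast (1375.1 CPM) and leukocyte marker RNA (55.0 CPM) as well. The stem and cycling cell markers were lowest in it (626.5 CPM).

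**Figure D2:**
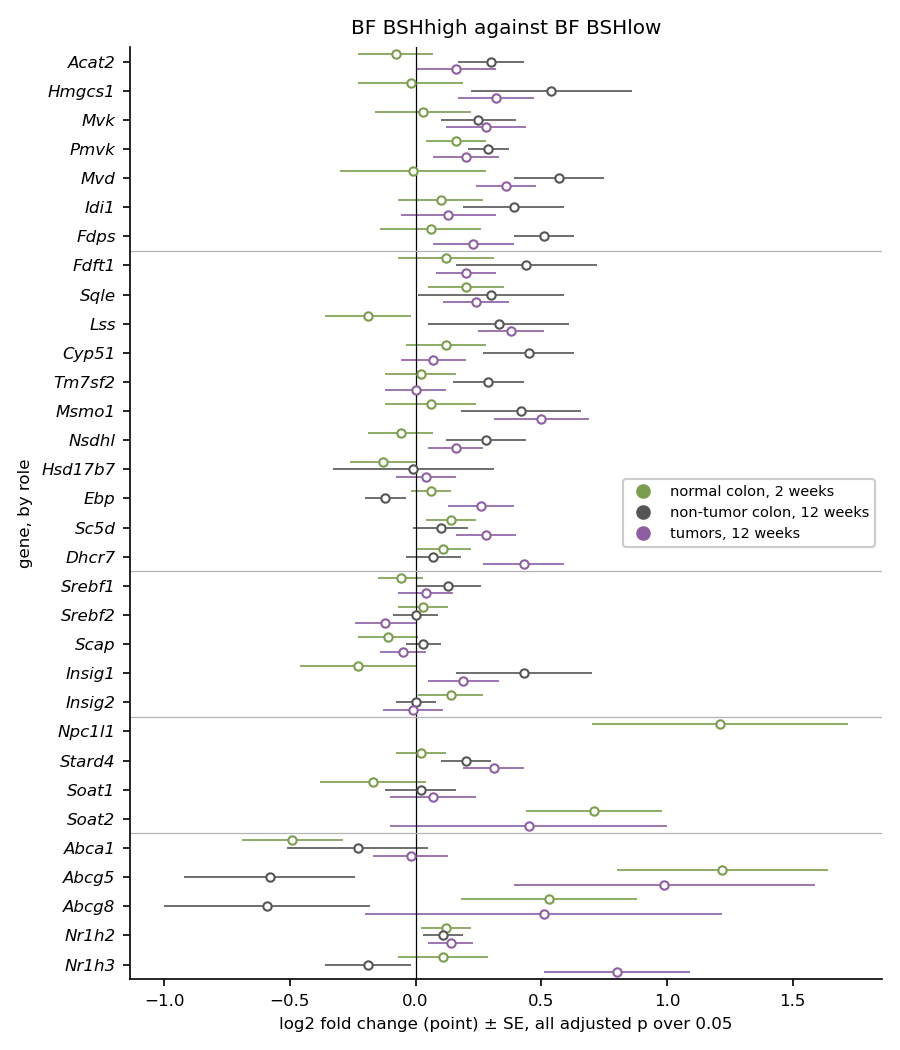
Log2 fold change of BF BSHhigh against BF BSHlow (points) ± SE for each gene (rows, by role) in normal colon of 2 weeks, non-tumor colon of 12 weeks and tumors. All points are open because no adjusted p fell under 0.05, and the 12-week points of the synthesis genes lie mostly to the right of 0.

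The effect of BF BSHhigh was also compared between tissues and times in interaction terms. Between tumors and non-tumor colon, 0 cholesterol genes had a called difference (0.991% of all genes), and 3 had one at an unadjusted p under 0.05 (9.60%). All 3 were positive. With a library left out, 1 to 4 were positive at that unadjusted threshold, where 865 to 1517 of all genes were. Without replicate 4 of the BF BSHlow non-tumor colon, 4 were negative, where 520 of 16404 genes were. DESeq2 and limma-voom called 0, where DESeq2 called 399 of 16454 genes positive and 21 negative and limma-voom 0. The smallest p-values were those of *Nr1h3* (difference of log2 fold changes 1.0 ± 0.33, adjusted p = 0.255), *Ebp* (0.39 ± 0.15, adjusted p = 0.387) and *Abcg5* (1.60 ± 0.71, adjusted p = 0.483). Between 12-week non-tumor and 2-week colon, 0 were called (0% of all genes) and 1 had an unadjusted p under 0.05 (7.31%). This was *Abcg5*, at -1.79 ± 0.57 (adjusted p = 0.46). *Abcg8* was at -1.11 ± 0.57 and *Fdps* at 0.47 ± 0.25 (adjusted p = 0.713 and 0.723). Without replicate 4 of the 12-week BF BSHlow group, 10 were positive and 2 negative at an unadjusted p under 0.05, where 767 and 444 of 15729 genes were. Without replicate 3 of the 2-week BF BSHhigh group, 6 were positive and 1 was negative, where 925 and 465 of 15753 genes were. In either case 0 cholesterol genes were called. DESeq2 and limma-voom called 0 here too, where DESeq2 called 21 of 15532 genes positive and 14 negative and limma-voom 0.

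Tumors were then compared with non-tumor colon to ask how the pathway stood in the *Apc*-deficient lesions. The pathway did not move as a block. With BF BSHlow, 10 of 31 genes rose and 10 fell, where 33.3% and 32.2% of all genes did, so the shares called were close to those over all genes. With BF BSHhigh, 6 rose and 9 fell, against 29.4% and 27.2% of all genes. With a log2 fold change past 1 as well, 2 rose (16.7% of all genes) and 6 fell (19.5%) with BF BSHlow, and 1 rose (14.6%) and 4 fell (14.8%) with BF BSHhigh. The 6 and 9 called with BF BSHhigh were all among the 10 and 10 called with BF BSHlow, in the same direction. The median log2 fold change was -0.12 and -0.08, against 0.04 over all genes in both strains. With a library left out it ranged from -0.24 to 0.03 with BF BSHlow, positive without replicate 4 of the non-tumor colon, and from -0.18 to -0.02 with BF BSHhigh. Labels do not say whether tumor and non-tumor tissue came from the same mice. In both strains *Fdps*, *Tm7sf2*, the SREBP genes, *Soat1* and *Abca1* rose. The sterol genes *Msmo1*, *Ebp*, *Sc5d* and *Dhcr7*, both INSIG genes, *Stard4*, *Abcg5* and *Nr1h3* fell in both.

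Of the 7 mevalonate and isoprenoid genes, 3 rose with BF BSHlow, where 33.3% of all genes did, and 1 with BF BSHhigh, where 29.4% did. *Fdps* was at 115.2, 168.0, 157.8 and 120.6 CPM in BF BSHlow tumors and at 192.9, 138.7 and 163.9 CPM in BF BSHhigh tumors, above every non-tumor library of the same strain. It rose by 0.75 ± 0.15 (adjusted p = 0.000426) and 0.47 ± 0.16 (adjusted p = 0.0181) on the log2 scale. *Mvd* rose with BF BSHlow (0.52 ± 0.17, adjusted p = 0.0127), with overlapping groups, and was at 0.32 ± 0.18 with BF BSHhigh (adjusted p = 0.131). *Acat2*, which joins acetyl-CoA units at the head of the pathway, was at 56.3, 85.5, 62.8 and 55.6 CPM in BF BSHlow tumors against 37.0, 49.5, 51.5 and 53.6 CPM in non-tumor colon. The groups did not overlap (0.42 ± 0.15, adjusted p = 0.0268), but without replicate 2 of the tumors the value was 0.26 (adjusted p = 0.12). The other 4 genes were between -0.41 (*Hmgcs1*) and 0.17 (*Pmvk*) with BF BSHlow and did not pass the test.

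The sterol steps split. *Tm7sf2*, a sterol reductase of the inner nuclear membrane and endoplasmic reticulum, was at 45.4, 43.5, 45.2 and 35.4 CPM in BF BSHlow tumors and at 19.1, 20.2, 19.4 and 12.7 CPM in the non-tumor colon. With BF BSHhigh it was at 39.7, 41.6 and 46.9 CPM against 21.7, 22.0, 21.9 and 22.4 CPM. Each tumor library was above each non-tumor library, with rises of 1.23 ± 0.12 (adjusted p = 1.08e-06) and 0.95 ± 0.13 (adjusted p = 3.63e-05). *Dhcr7*, the reductase that forms cholesterol in the last step, went the other way. It was at 39.5, 55.6, 45.4 and 53.2 CPM in BF BSHlow tumors against 93.3, 112.4, 126.3 and 125.8 CPM. The BF BSHhigh tumors held 78.7, 64.1 and 54.6 CPM against 107.2, 133.1, 128.0 and 115.1 CPM. It fell by 1.26 ± 0.14 (adjusted p = 2.93e-06) and 0.89 ± 0.15 (adjusted p = 0.000239), and no tumor reached a non-tumor library. *Ebp*, a sterol isomerase, was at 40.9, 42.8, 43.2 and 37.5 CPM in BF BSHlow tumors against 75.4, 77.9, 75.7 and 84.6 CPM. Tumors of BF BSHhigh were at 60.0, 42.5 and 45.9 CPM against 69.2, 77.8, 77.4 and 65.7 CPM. These groups were apart too, with falls of 0.95 ± 0.10 (adjusted p = 2.44e-06) and 0.56 ± 0.11 (adjusted p = 0.000786). *Msmo1*, which oxidizes sterol methyl groups, was at 55.8, 84.6, 71.8 and 71.6 CPM against 83.2, 134.7, 105.7 and 199.0 CPM, overlapping in 1 library. With BF BSHhigh it was at 133.0, 89.1 and 81.7 CPM against 190.2, 152.0, 177.5 and 184.6 CPM, without overlap. It fell by 0.90 ± 0.23 (adjusted p = 0.00357) and 0.81 ± 0.25 (adjusted p = 0.0149). *Sc5d*, a sterol desaturase next to *Dhcr7* in the pathway, fell by 0.87 ± 0.12 and 0.67 ± 0.14 (adjusted p = 2.87e-05 and 0.000801). *Nsdhl* rose with BF BSHlow (0.44 ± 0.14, adjusted p = 0.0166) and was at 0.34 ± 0.16 with BF BSHhigh (adjusted p = 0.0795). The remaining 5 sterol genes passed no test. They lay between -0.50 (*Lss*) and 0.53 (*Fdft1*) with BF BSHlow and between -0.50 (*Sqle*) and 0.30 (*Fdft1*) with BF BSHhigh.

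**Figure D3:**
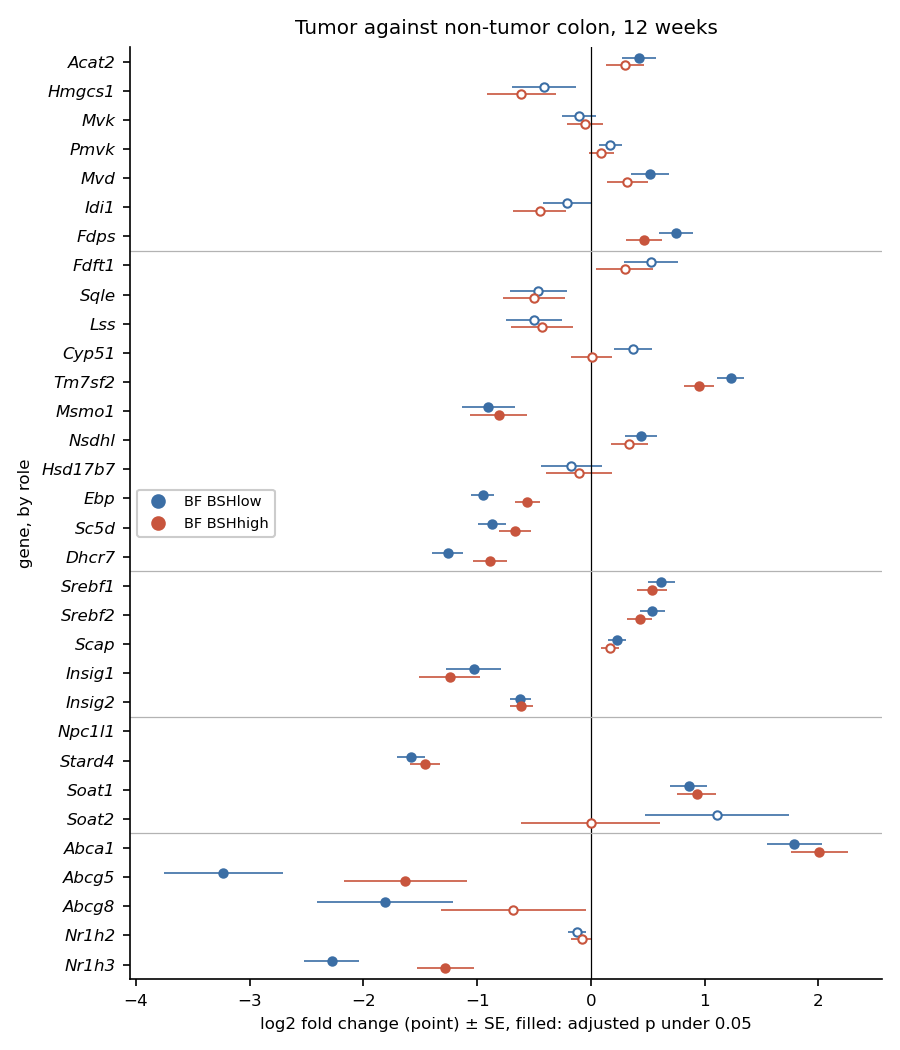
Log2 fold change of tumors against non-tumor colon (points) ± SE for each gene (rows, by role) with BF BSHlow (blue) and BF BSHhigh (red). Filled points passed an adjusted p of 0.05. *Npc1l1* was too low to be tested.

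Among the control genes, the factors and their brakes moved in opposite directions. *Srebf1*, which encodes SREBP1, was at 104.5, 139.4, 119.7 and 138.1 CPM in BF BSHlow tumors against 85.9, 78.8, 93.0 and 65.8 CPM in non-tumor colon. In BF BSHhigh tumors it was at 125.3, 137.5 and 127.0 CPM against 72.3, 93.7, 96.8 and 93.6 CPM. It rose by 0.62 ± 0.12 (adjusted p = 0.00046) and 0.54 ± 0.13 (adjusted p = 0.00298), with no overlap. *Srebf2*, which encodes SREBP2, rose by 0.54 ± 0.11 and 0.43 ± 0.11 (adjusted p = 0.000437 and 0.00496). *Scap* rose with BF BSHlow by 0.23 ± 0.08 (adjusted p = 0.0192) and was at 0.17 ± 0.08 with BF BSHhigh (adjusted p = 0.101). *Insig1*, itself a target of SREBP, was at 57.9, 65.7, 59.1 and 79.2 CPM in BF BSHlow tumors against 91.4, 117.8, 91.4 and 223.9 CPM. The values were 85.3, 77.0 and 64.3 CPM against 193.4, 183.4, 174.4 and 159.9 CPM with BF BSHhigh. Tumors lay below all non-tumor libraries, and the fall was 1.03 ± 0.24 (adjusted p = 0.00204) and 1.24 ± 0.27 (adjusted p = 0.0014). Without replicate 4 of the BF BSHlow non-tumor colon, *Insig1* was at -0.62 (adjusted p = 0.00118) in that strain. *Insig2*, its paralog, was at 27.6, 28.3, 27.8 and 35.1 CPM against 44.1, 42.1, 45.6 and 49.2 CPM with BF BSHlow, and at 30.9, 29.0 and 29.4 CPM against 48.0, 45.6, 40.1 and 47.4 CPM with BF BSHhigh. It fell by 0.62 ± 0.09 and 0.61 ± 0.10 (adjusted p = 5.14e-05 and 0.000195), again without overlap.

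In uptake, transfer and esterification, *Stard4* and *Soat1* changed in opposite directions. *Stard4*, which moves sterol between the plasma membrane and the endoplasmic reticulum, was at 82.3, 108.4, 85.9 and 87.9 CPM in BF BSHlow tumors against 247.4, 274.8, 249.2 and 307.6 CPM in non-tumor colon. In BF BSHhigh tumors it was at 124.7, 119.5 and 98.3 CPM against 283.4, 300.4, 340.4 and 324.2 CPM. It fell by 1.58 ± 0.12 (adjusted p = 6.21e-08) and 1.46 ± 0.13 (adjusted p = 9.09e-07), the smallest p-values of the 31 genes in both strains, and the groups were far apart. *Soat1*, the broadly expressed enzyme that stores cholesterol as esters, was at 134.8, 111.4, 132.1 and 83.0 CPM against 64.1, 59.6, 81.0 and 47.5 CPM. With BF BSHhigh it was at 115.5, 122.1 and 129.5 CPM against 66.9, 65.6, 64.2 and 59.2 CPM. It rose by 0.86 ± 0.16 (adjusted p = 0.000241) and 0.93 ± 0.17 (adjusted p = 0.000314), and no groups overlapped. *Soat2* was at 0.342 to 0.883 CPM in BF BSHlow tumors and at 0.312 to 1.29 CPM in BF BSHhigh tumors and did not pass the test. *Npc1l1* had between 0 and 7 expected counts per tumor library.

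The efflux genes also split. *Abca1* was at 107.1, 94.4, 95.2 and 107.9 CPM in BF BSHlow tumors against 38.8, 29.8, 28.4 and 19.0 CPM in non-tumor colon. In BF BSHhigh tumors it was at 76.0, 110.8 and 114.2 CPM against 17.9, 26.4, 36.3 and 18.2 CPM. The lowest tumor was above the highest non-tumor library, with rises of 1.79 ± 0.24 (adjusted p = 1.5e-05) and 2.01 ± 0.25 (adjusted p = 1.62e-05). *Abcg5* was at 4.95, 1.64, 1.43 and 1.42 CPM in BF BSHlow tumors against 17.4, 21.2, 36.3 and 13.4 CPM. With BF BSHhigh it was at 3.15, 8.53 and 2.62 CPM against 11.5, 12.8, 23.4 and 11.1 CPM. It fell by 3.23 ± 0.52 (adjusted p = 8.46e-05) and 1.63 ± 0.54 (adjusted p = 0.0186), without overlap. *Abcg8* was at 6.23, 1.54, 1.72 and 1.71 CPM against 8.00, 9.22, 16.6 and 5.48 CPM with BF BSHlow and fell by 1.81 ± 0.60 (adjusted p = 0.0166). With BF BSHhigh it was at 1.50, 8.21 and 2.48 CPM against 5.19, 6.84, 10.6 and 3.29 CPM, a log2 fold change of -0.68 ± 0.64 (adjusted p = 0.387). The *Abcg8* groups overlapped in both strains, through replicate 1 of the BF BSHlow tumors and replicate b of the BF BSHhigh tumors, which also held the highest *Abcg5* of their groups. *Nr1h3* was at 25.6, 20.7, 28.1 and 34.4 CPM in BF BSHlow non-tumor colon and at 18.2, 25.1, 26.7 and 25.8 CPM in that of BF BSHhigh, and all 7 tumors, given above, lay below. It fell by 2.28 ± 0.24 (adjusted p = 1.37e-06) and 1.28 ± 0.25 (adjusted p = 0.000634). *Nr1h2*, the broadly expressed LXR beta, was at -0.12 ± 0.08 and -0.08 ± 0.09 (adjusted p = 0.205 and 0.464).

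**Figure D4:**
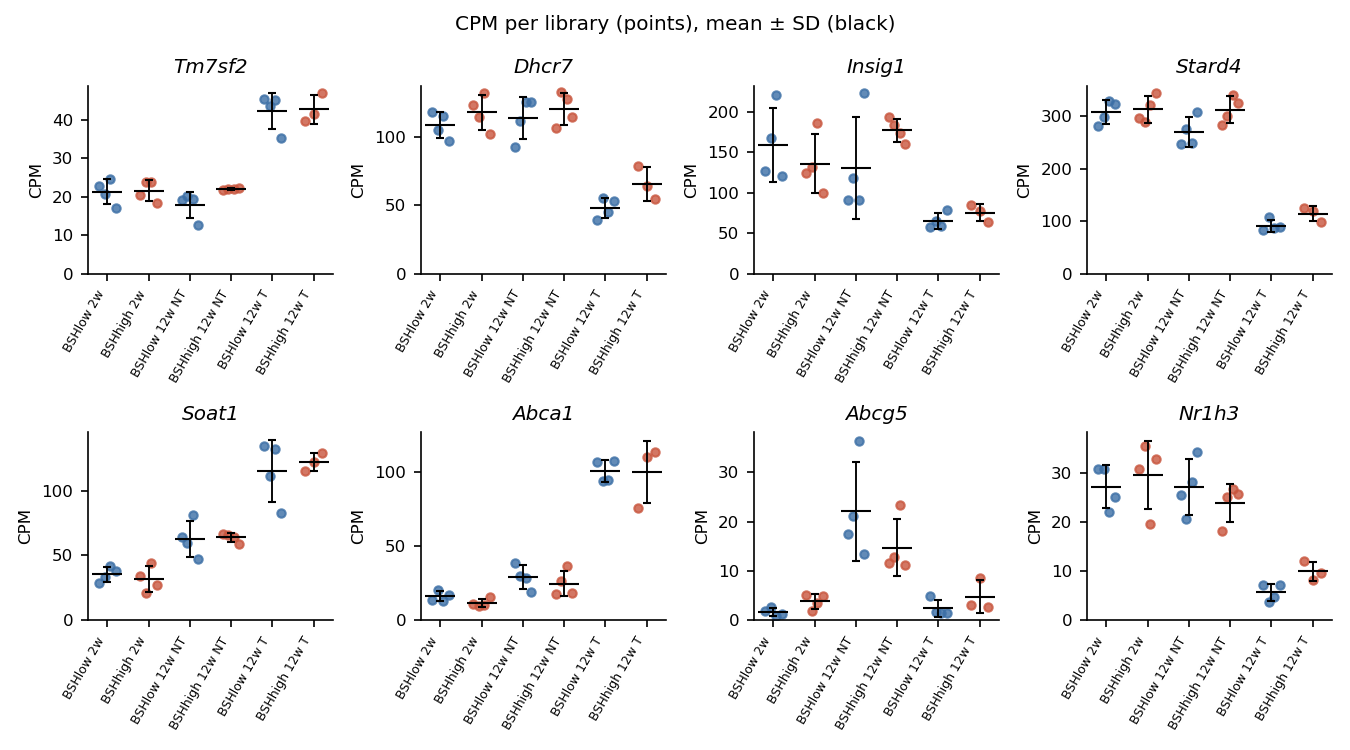
CPM of 8 genes in each library (points) by group, with the mean ± SD in black, on linear axes from 0. *Tm7sf2*, *Soat1* and *Abca1* are higher in tumors than in both other tissues, *Dhcr7*, *Insig1*, *Stard4* and *Nr1h3* lower, and *Abcg5* stands high in 12-week non-tumor colon.

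Related genes outside the 32 were counted in lists chosen by function. The counts that follow stand against 33.3% of all genes that rose and 32.2% that fell with BF BSHlow, and 29.4% and 27.2% with BF BSHhigh. Of 13 fatty acid synthesis genes under SREBP1, 5 rose and 3 fell in tumors with BF BSHlow (median 0.32), and as many did with BF BSHhigh (median 0.11). *Fads1*, a fatty acid desaturase, rose by 2.75 ± 0.21 and 2.81 ± 0.22 (adjusted p = 9.5e-08 and 3.82e-07), *Fasn*, fatty acid synthase, rose by 1.26 ± 0.17 and 1.01 ± 0.18, and *Acacb* fell by 2.24 ± 0.48 and 1.40 ± 0.50. Of 9 genes of SREBP processing and sterol sensing, 3 rose and 4 fell with BF BSHlow and 1 rose and 4 fell with BF BSHhigh. *Erlin1*, a membrane protein that takes part in INSIG-linked degradation, fell by 2.37 ± 0.14 and 1.68 ± 0.15 (adjusted p = 1.47e-08 and 9.09e-07). Of 12 sterol transport genes and LXR targets, 5 rose and 5 fell, and 4 rose and 4 fell. *Gramd1a*, a sterol carrier, rose by 1.63 ± 0.26 and 1.64 ± 0.27, and *Abcg1*, a sterol exporter, rose by 0.84 ± 0.29 and 1.19 ± 0.31. *Stard5* fell by 1.0 ± 0.17 and 0.94 ± 0.19. Of 8 genes of the non-sterol isoprenoid branch, 2 rose and 3 fell, and 1 rose and 3 fell. *Pdss1* and *Pdss2* make the side chain of ubiquinone. *Pdss1* fell by 1.89 ± 0.28 and 1.70 ± 0.31, and *Pdss2* by 1.27 ± 0.17 and 1.06 ± 0.19. Of 5 oxysterol and bile acid side chain enzymes, 2 rose in each strain, *Hsd3b7* by 1.53 ± 0.14 and 1.17 ± 0.15 and *Ch25h*, which makes an oxysterol, by 1.23 ± 0.39 and 1.85 ± 0.42. None of these genes was called between the strains in any tissue or in an interaction.

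The 12-week non-tumor colon was compared with the 2-week normal colon within each strain. Mouse age, time on diet, time since colonization and the tissue sampled cannot be told apart in this comparison. With BF BSHlow, 5 of 32 genes were higher at 12 weeks and 7 lower, where 25.6% and 23.5% of all genes were. With BF BSHhigh, 5 were higher and 5 lower, against 27.0% and 22.7%. With a log2 fold change past 1 as well, 2 were higher (17.0% of all genes) and 2 lower (8.06%) with BF BSHlow, and 4 were higher (16.8%) and 2 lower (7.56%) with BF BSHhigh. The strains shared 4 of the 5 higher genes, and 5 of the 7 and of the 5 lower ones. The exporters *Abcg5* and *Abcg8* stood higher at 12 weeks, and the importer *Npc1l1* and the esterifying *Soat2* lower.

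*Abcg5* rose from the 2-week values given above to 17.4, 21.2, 36.3 and 13.4 CPM with BF BSHlow and to 11.5, 12.8, 23.4 and 11.1 CPM with BF BSHhigh. All 2-week libraries lay below these, and the log2 fold change was 3.75 ± 0.43 (adjusted p = 7.24e-06) and 1.96 ± 0.39 (adjusted p = 0.000777). *Abcg8* was at 2.12, 2.92, 1.52 and 1.41 CPM and at 3.90, 1.84, 2.23 and 3.69 CPM at 2 weeks. It was higher at 12 weeks by 2.29 ± 0.42 (adjusted p = 0.000378) and 1.17 ± 0.40 (adjusted p = 0.0243), with an overlap in BF BSHhigh through replicate 4 of the 12-week group. *Abca1* was higher by 0.84 ± 0.26 (adjusted p = 0.0139) and 1.11 ± 0.26 (adjusted p = 0.00254). Its highest 2-week value, 20.4 CPM with BF BSHlow, exceeded 1 of the 4 later libraries, while the BF BSHhigh groups were apart. *Nr1h2* was lower by about the same amount in both, at -0.32 ± 0.09 (adjusted p = 0.00699 and 0.00696).

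*Npc1l1* had 46, 36, 8 and 36 expected counts in the 2-week BF BSHlow libraries and 46, 94, 27 and 123 in those of BF BSHhigh. At 12 weeks it had 0, 1, 5 and 0 counts and 3, 18, 1 and 3 counts. In both strains the times did not overlap, and it was lower by a fitted log2 fold change of -4.53 ± 0.94 (adjusted p = 0.00108) and -3.80 ± 0.79 (adjusted p = 0.00104), which depend on few counts. *Soat2*, the esterifying enzyme of enterocytes and liver, had 36, 22, 18 and 28 counts and 34, 47, 34 and 57 counts at 2 weeks. It had 5, 1, 4 and 6 and then 6, 25, 8 and 11 counts at 12 weeks, without overlap in either strain. It was lower by -2.92 ± 0.50 (adjusted p = 0.000216) and -2.05 ± 0.44 (adjusted p = 0.00133). *Npc1l1* and *Soat2* are genes of absorptive enterocytes. Of the 7 small intestinal enterocyte markers, 5 were lower in each strain, where 23.5% and 22.7% of all genes were. *Rbp2* was not called in either strain (0.40 ± 0.42 and -0.15 ± 0.42). Nor were *Anpep* with BF BSHlow (-0.01 ± 0.46) and *Apoa4* with BF BSHhigh (0.15 ± 1.32). A link between these genes and the markers was not tested. *Soat1* went up, from 28.7, 33.4, 41.6 and 37.8 CPM and from 34.3, 21.0, 44.2 and 27.0 CPM at 2 weeks, by 0.82 ± 0.20 (adjusted p = 0.00277) and 1.02 ± 0.20 (adjusted p = 0.000576). No 2-week library reached a 12-week one. Macrophage and smooth muscle markers rose over the same comparison.

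Among the control genes, *Srebf2* was at 259.7, 222.3, 267.9 and 255.5 CPM and at 245.4, 259.3, 279.8 and 246.0 CPM at 2 weeks. At 12 weeks it was at 175.5, 195.2, 221.3 and 202.9 CPM and at 189.0, 184.8, 208.3 and 217.5 CPM, below all of them. It was lower by -0.35 ± 0.09 (adjusted p = 0.00458) and -0.36 ± 0.09 (adjusted p = 0.00375). *Insig2* was at 68.9, 69.0, 54.2 and 52.9 CPM and at 67.8, 65.8, 57.4 and 80.2 CPM at 2 weeks, above all 12-week values. It was lower by -0.45 ± 0.11 (adjusted p = 0.00406) and -0.57 ± 0.11 (adjusted p = 0.000636). *Srebf1*, *Scap* and *Insig1* passed no test in either strain.

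With all libraries kept, few synthesis genes were called over time. With BF BSHlow, *Lss* was at 52.9, 50.4, 77.2 and 61.2 CPM at 2 weeks and at 22.8, 37.2, 30.8 and 65.5 CPM at 12 weeks (-0.63 ± 0.25, adjusted p = 0.049). For 6 of the 8 libraries, leaving out that library alone ended the call, with values of -0.70 to -0.45, and without replicate 4 of the 12-week group *Lss* was at -1.01. Only replicate 4 of the 12-week group fell within the 2-week range. *Nsdhl* was at 42.7, 40.3, 49.0 and 42.8 CPM and then at 26.7, 32.9, 29.8 and 40.8 CPM (-0.43 ± 0.15, adjusted p = 0.0304). *Ebp* was at 66.8, 64.3, 71.1 and 67.3 CPM and then at 75.4, 77.9, 75.7 and 84.6 CPM, without overlap (0.21 ± 0.07, adjusted p = 0.0275). With BF BSHhigh, *Acat2* was the only synthesis gene called, from 34.1, 34.8, 51.4 and 33.9 CPM to 52.5, 54.3, 59.3 and 70.5 CPM (0.62 ± 0.15, adjusted p = 0.0031). Replicate 4 of BF BSHlow at 12 weeks set the count in that strain. Without it, 14 genes were lower in place of 7, where 3771 of 15729 genes were. The 7 were among the 14, and the added ones were *Cyp51*, *Fdft1*, *Hmgcs1*, *Hsd17b7*, *Insig1*, *Sc5d* and *Stard4*. Of the added synthesis genes, *Hmgcs1* was then at -1.08, *Fdft1* at -0.81, *Hsd17b7* at -0.8, *Cyp51* at -0.59 and *Sc5d* at -0.24.

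Genes of the related lists were called in both directions over time, where 25.6% of all genes were higher and 23.5% lower with BF BSHlow, and 27.0% and 22.7% with BF BSHhigh. Of the 13 fatty acid genes, 3 were higher and 5 lower at 12 weeks with BF BSHlow, and 5 higher and 3 lower with BF BSHhigh. *Fads2*, a desaturase, was higher by 2.18 ± 0.16 and 1.97 ± 0.16 (adjusted p = 2.02e-07 and 4.57e-07). Of the 9 genes of SREBP processing and sterol sensing, 1 was higher and 2 lower, and 2 higher and 2 lower. *Pgrmc1*, a sterol-binding membrane protein, was at -1.30 ± 0.15 and -1.40 ± 0.15. Of the 12 transport genes and LXR targets, 4 were higher and 5 lower, and 2 higher and 5 lower. *Nceh1*, a cholesterol ester hydrolase, was at -2.10 ± 0.32 and -2.90 ± 0.33, and *Abcg1* was at 1.30 ± 0.33 and 0.97 ± 0.33. Of the 8 genes of the isoprenoid branch, 5 were lower with BF BSHlow and 3 with BF BSHhigh, and 0 were higher in either. Of the 5 oxysterol enzymes, 3 were higher and 1 lower, and 2 higher and 1 lower. *Cyp7b1*, an oxysterol hydroxylase, was at 2.77 ± 0.78 and 2.82 ± 0.76, and *Hsd3b7* at -0.81 ± 0.09 and -1.04 ± 0.09.

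The synthesis genes also rose and fell together between libraries of the same group. Replicate 3 of the 2-week BF BSHlow group held the highest value of 16 of the 18 genes, and replicate 3 of the 2-week BF BSHhigh group that of 14. In 12-week non-tumor colon, replicate 4 of BF BSHlow held the highest of 15 genes and replicate 1 the lowest of 15. Among BF BSHlow tumors, replicate 2 held the highest of 14. Summed over the 18 genes, CPM ranged from 1060.2 to 2120.5 among the BF BSHlow non-tumor libraries and from 1787.9 to 2071.2 among those of BF BSHhigh. *Tm7sf2* did not follow: in replicate 4 of the BF BSHlow non-tumor colon it was at its lowest, 12.7 CPM, where *Hmgcs1*, *Sqle* and *Insig1* were at their highest of the group. Libraries share scaling and tissue makeup, and these counts were not tested.

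**Figure D5:**
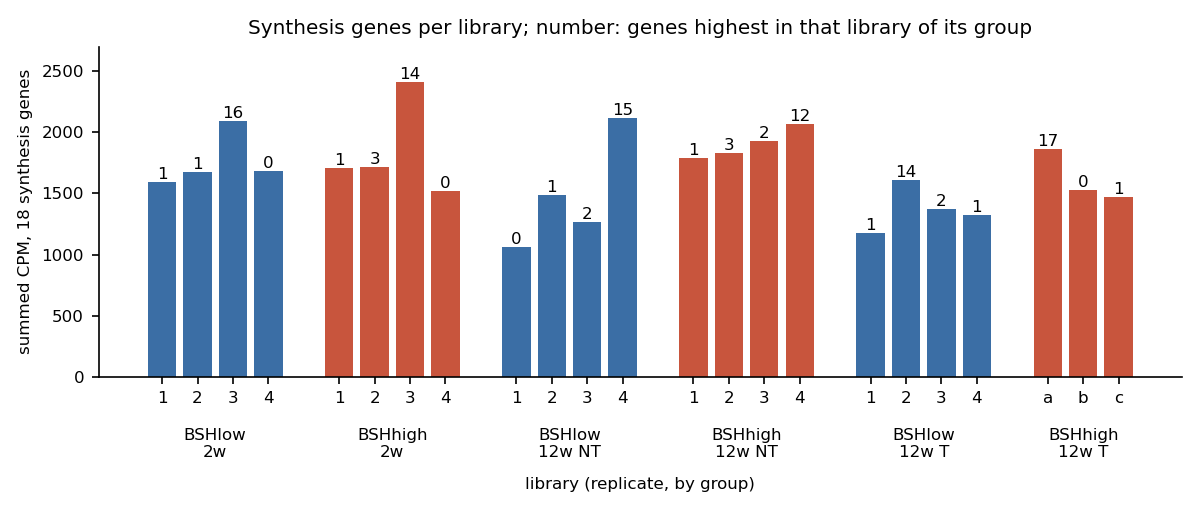
CPM summed over the 18 synthesis genes (bars from 0) in each of the 23 libraries, by group, with BF BSHlow in blue and BF BSHhigh in red. The number on a bar counts the genes with their highest value of the group in that library, which is 12 to 17 for the tallest bar of each group.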

How the data were processed

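RNA of 23 colon libraries was sequenced. Per the labels and the paper's methods, the authors used Cutadapt, STAR (genome mm10), Picard and RSEM and deposited expected counts per gene without normalization. The labels give a total RNA library preparation and colonization 2 times a week, and the methods an mRNA preparation and gavage every few days. The 32 genes, their roles and the related lists were chosen by symbol, with earlier results of these data known. After rounding of the expected counts, all genes that passed filterByExpr were fitted by edgeR 4.0.16 (R 4.3.3) and tested by quasi-likelihood, with TMM scaling and Benjamini-Hochberg adjustment. Comparisons of the strains held only the groups compared, while tumor against non-tumor colon used the 15 libraries of 12 weeks and the comparison of times the 16 non-tumor libraries. SE was the log2 fold change divided by the root of F. Labels do not say whether replicates are separate mice. For the 12-week groups the paper speaks of pooled sample sizes and of independent samples. The p-values judge differences against the variation between these libraries, whatever number of mice each holds. The alternatives were DESeq2 1.42.0, limma-voom (limma 3.58.1), RLE scaling, no filter, all 23 libraries in a single fit, a block for the replicate number, and fits without each library in turn. Genes with values in every library were, per role and comparison, up to 3 called genes with the largest fold change and a mean of at least 1 CPM, or the 3 smallest p-values where none was called. From each related list, up to 3 called genes with the largest change could be named, each with the values of both strains. *Hmgcs1* in the comparison of strains was named after its values were seen. The tests were checked on simulated counts. Tables were joined in Python with pandas.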

Additional observations from a re-analysis of the deposited data

Results flagged for a closer look

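In groups of 4 libraries, a library was singled out where its gap to the nearest other, relative to the range of log2 CPM, passed Dixon's critical value. This held for 14 of 160 combinations of gene and group, and chance flags about 1 in 20 groups. In normal colon of 2 weeks, replicate 3 of BF BSHhigh stood above the others for *Acat2* (51.4 CPM, others 33.9 to 34.8), *Idi1* (217.3 CPM, others 130.3 to 140.8), *Fdps* (154.5 CPM, others 80.8 to 86.4) and *Sqle* (166.0 CPM, others 106.2 to 111.4). Replicate 3 of BF BSHlow stood above for *Mvd* (62.1 CPM, others 32.5 to 34.9) and *Fdft1* (163.6 CPM, others 118.0 to 124.3). In 12-week non-tumor colon of BF BSHlow, *Mvk* was low in replicate 1 (13.7 CPM, others 21.1 to 22.6) and *Tm7sf2* in replicate 4 (12.7 CPM, others 19.1 to 20.2). In that of BF BSHhigh, replicate 1 was low for *Srebf1* (72.3 CPM, others 93.6 to 96.8) and *Nr1h3* (18.2 CPM, others 25.1 to 26.7). Among BF BSHlow tumors, replicate 1 was high for *Abcg5* (4.95 CPM, others 1.42 to 1.64) and *Abcg8* (6.23 CPM, others 1.54 to 1.72), replicate 4 was high for *Insig2* (35.1 CPM, others 27.6 to 28.3), and *Npc1l1* was at 0.0 CPM in replicate 2 (others 0.0953 to 0.0981 CPM, or 2 counts each). The 3 BF BSHhigh tumors were too few to be examined in this way.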

How the results depend on the processing

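Of 266 counts of called genes under other settings, 264 stayed within 1.5 times the reported ones. The exceptions were 2. In non-tumor colon DESeq2 called 1 gene, *Fdps*, higher with BF BSHhigh in place of 0, where it called 133 of 14933 genes higher. In the time comparison with BF BSHlow, leaving out a library gave 5 to 14 lower genes in place of 7. The 14 came without replicate 4 of the non-tumor colon, where 3771 of 15729 genes were lower. No named fold change changed sign in any setting. The 1001 such values include genes that had no call to lose, such as those named in the comparisons of strains and the interactions. Among called genes, 37 values lost their call. These were 9 in BF BSHlow tumors, 6 in BF BSHhigh tumors, and 17 (BF BSHlow) and 5 (BF BSHhigh) in the comparison of times. Leaving out a single library ended the calls of *Acat2*, *Nsdhl*, *Scap* and *Abcg8* (BF BSHlow) and of *Fdps*, *Msmo1* and *Abcg5* (BF BSHhigh) in tumors. *Abca1*, *Ebp*, *Lss* and *Nsdhl* (BF BSHlow) and *Abcg8* (BF BSHhigh) lost theirs in this way in the comparison of times. Other settings ended the calls of *Mvd* in BF BSHlow tumors (all 23 libraries in a single fit, 0.54, adjusted p = 0.0521), of *Scap* there (replicate block, adjusted p = 0.0979) and, in the comparison of times, of *Lss* (RLE scaling, adjusted p = 0.0518), *Ebp* (all 23 libraries, adjusted p = 0.0527, and no filter, adjusted p = 0.076) and *Abcg8* with BF BSHhigh (all 23 libraries, adjusted p = 0.0833, and limma-voom, adjusted p = 0.0529). The cause was not tested. Same-numbered libraries did not deviate together in each pair, so the numbers were not used for pairing. With a replicate block, 0 cholesterol genes were called between strains at 2 weeks and in non-tumor colon, where 1 of all genes was in each. In BF BSHlow tumors, 9 of the 30 tested were higher and 10 lower, where 4545 and 4348 of 15179 genes were. Low counts limit *Npc1l1* and *Soat2*.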
